A study of Homo sapiens with 18 samples.

Results

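The data are the RNA libraries of LNCaP cells that received siRNA against the transcription factor E2F2 in the absence of added androgen, set against cells that received a non-targeting siRNA in the same medium. The members were taken by their sample titles: 3 libraries of E2F2 siRNA with vehicle and 3 libraries of control siRNA with vehicle, 6 of the 18 libraries of the series, with no measured value used in the choice. LNCaP is an established, androgen-responsive line of human prostate cancer. Cells were grown in 9% charcoal-stripped serum, from which most androgen has been removed, and transfected a day after seeding with Lipofectamine 2000. Each siRNA was a SmartPool, that is, several siRNAs against 1 gene given together, so the action of any single siRNA cannot be told apart. The E2F2 siRNA vehicle group had the E2F2 pool and then ethanol, and the control siRNA vehicle group had the non-targeting pool and then ethanol. The further groups used below for comparison were E2F1 siRNA with vehicle, E2F2 siRNA with 0.1 nM of the synthetic androgen R1881, and control siRNA with 0.1 nM R1881. All of these groups were transfected, and none was an untransfected culture. RNA was taken 48 h after the start of vehicle or R1881, and the labels place that start at 42 h after transfection in one entry and at 48 h in another. Each group had 3 biological replicates in the words of the labels, which do not say whether these were separate passages or days. The p-values therefore measure the spread between these libraries.

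E2F1 and E2F2 belong to the activator E2Fs, transcription factors that bind with a DP partner at the promoters of genes for DNA synthesis. In resting cells the retinoblastoma protein RB and its relatives hold E2F targets silent, and phosphorylation of RB by cyclin-dependent kinases in G1 releases them. Genes of mitosis are switched on later in the cycle by the MuvB complex with MYBL2 and FOXM1, whose own genes are E2F targets. Androgen is a growth signal for LNCaP cells, and cells in stripped serum divide slowly. RNA from a whole culture is an average over its cells, so fewer cells in a phase of the cycle and less RNA per cell cannot be told apart.

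The 6 vehicle libraries held 11017181 to 14563300 gene counts, against 10930204 to 14819879 over all 18 libraries, and 15185 of the 58037 listed genes had enough counts to be tested. The third replicate stood apart in both vehicle groups. The chi-square statistic over genes, divided by its degrees of freedom, was 2.07 between replicates 1 and 2 of E2F2 siRNA and 1.79 between those of control siRNA. Replicate 3 differed from them by 12.8 and 16.4 with E2F2 siRNA and by 83.3 and 93.2 with control siRNA. Across 12687 genes, which are not independent replicates, the deviation of replicate 3 from its group followed GC content with a Pearson r of 0.706 with E2F2 siRNA and 0.832 with control siRNA. Counts of called genes are therefore also given for replicates 1 and 2 alone, where each group has 2 libraries whose small spread may leave out variation between cultures. Luminal prostate markers were present: all 11 were tested, and they summed to 5023 to 5251 CPM (counts scaled to an equal library size with TMM factors) with E2F2 siRNA and 5306 to 5384 with control siRNA. The leukocyte markers PTPRC and CD3E, the endothelial marker CDH5, the muscle markers MYH11 and DES, and the neuroendocrine markers CHGA and INSM1 had no count in any of the 6 libraries. Other markers of non-luminal cells did have counts. Endothelial VWF had 1484 counts with E2F2 siRNA and 630 with control siRNA, neuroendocrine SYP 92 and 85, and immune CD68 14 and 10. The stromal collagen genes COL1A1 (1015 and 1011) and COL3A1 (223 and 220) were present in both groups. The nuclear non-coding RNA MALAT1 took 6.71%, 7.13% and 5.22% of all counts with E2F2 siRNA, against 3.12%, 3.35% and 1.25% with control siRNA. Its part in the results below was not tested beyond the scaling alternatives.

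E2F2 RNA was nearly absent with the pool against it. E2F2 (ENSG00000007968, GRCh38 chromosome 1, 23506430 to 23531220) had 0.277, 0 and 0.0861 CPM in the 3 E2F2 siRNA libraries, against 2.23, 1.45 and 3.20 CPM in the 3 control siRNA libraries. These rest on 4 counts in all with E2F2 siRNA and 98 with control siRNA, and the groups did not overlap. E2F2 fell to 5.67% of control (log2 fold change -4.14 ± 0.63 (SE), adjusted p = 0.00015, by edgeR's quasi-likelihood test with Benjamini-Hochberg adjustment over all tested genes). Leaving out replicate 1 of E2F2 siRNA, the library with the most E2F2 counts, gave a log2 fold change of -5.40. E2F1 (ENSG00000101412, chromosome 20, 33675683 to 33686404), which the pool does not name as its target, had 11.8, 10.8 and 15.1 CPM with E2F2 siRNA and 35.2, 33.6 and 43.0 CPM with control siRNA, again without overlap. It fell to 33.7% of control (log2 fold change -1.57 ± 0.16 (SE), adjusted p = 3.71e-06). Both E2Fs were low in the same cells, and a gene's change cannot be assigned to one of them from this comparison.

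Below 0.05 after Benjamini-Hochberg adjustment of edgeR quasi-likelihood p-values, 4145 genes (27.3% of those tested) were called: 2156 higher (14.2%) and 1989 lower (13.1%). The median log2 fold change of all tested genes was 0.02. At least 2-fold, 791 were higher (5.21%) and 448 lower (2.95%), together 8.16% of tested genes, and the 3 libraries of each group did not overlap for 3096 genes that were higher (20.4%) and 2565 that were lower (16.9%). Of the 26 gene lists described below, those of DNA replication, mitosis, histones and recombination repair had medians under -1, cytosolic ribosomal proteins fell in a narrow band, and p53 targets and interferon-response genes rose. Where a list is given below with no member in one direction, edgeR had none there at an unadjusted p below 0.05 either, apart from 1 neuroendocrine gene, and DESeq2 called none. With the replicate number as a block, which the pairing check allows, 6873 genes were called, with replicates 1 and 2 alone 6962, and with the 6 vehicle libraries fitted on their own, which leaves fewer libraries to estimate the spread, 1793. Counts from that last fit are given below as those of the 6 libraries fitted alone, wherever they differ from the count of a list by more than 1.5 times.

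**Figure D1:**
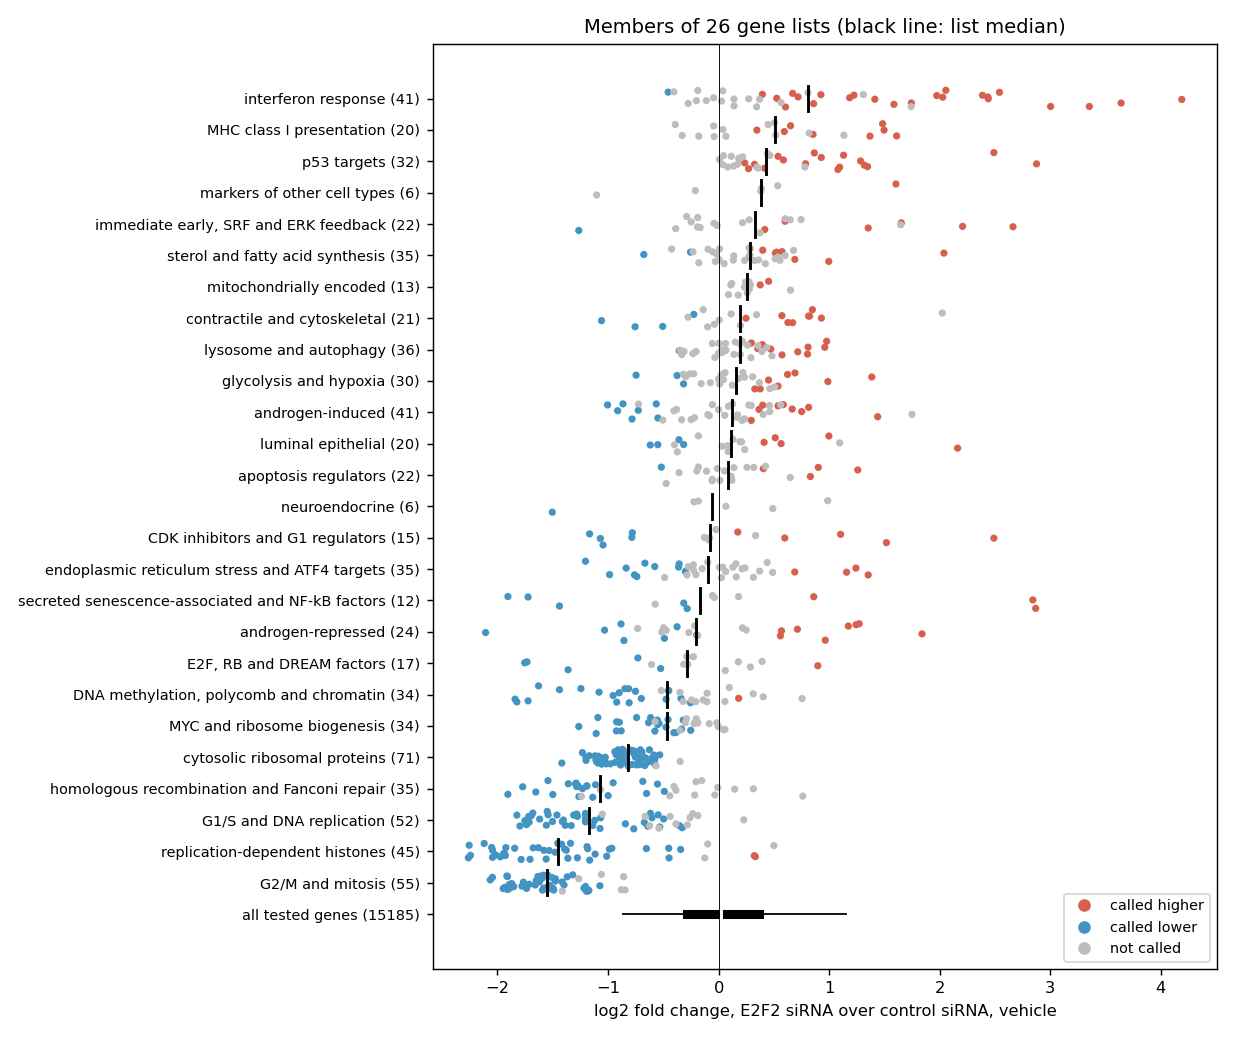
Log2 fold change, E2F2 siRNA over control siRNA with vehicle, for every tested member of 26 gene lists, with the number tested in parentheses; the black line is the list median, colours mark genes called higher (red), lower (blue) or not called (grey), and the bottom row gives the middle 50% (thick) and middle 90% (thin) of all 15185 tested genes. The lists run from a median of 0.81 for the interferon response to -1.55 for G2/M and mitosis.

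Genes of G1/S and DNA replication fell together. Of 52 tested, 41 were lower (78.8%, beside 13.1% of all genes) and none was higher, with a median log2 fold change of -1.17. TYMS, the thymidylate synthase that makes the thymine nucleotide, had 26.8, 27.6 and 28.9 CPM in the E2F2 siRNA libraries, against 84.6, 84.6 and 75.1 CPM in the control siRNA libraries (log2 fold change -1.55 ± 0.09 (SE), adjusted p = 8.88e-09). MCM10, which helps to activate the loaded replicative helicase, had 10.8, 11.9 and 12.6 CPM with E2F2 siRNA and 39.9, 41.9 and 35.9 CPM with control siRNA (log2 fold change -1.74 ± 0.10 (SE), adjusted p = 1.41e-08). In both genes the 3 libraries of each group lay close together and far from the other group. FEN1, the flap nuclease that processes Okazaki fragments, fell by 1.46 ± 0.08, and MCM4, a subunit of the replicative helicase, by 1.28 ± 0.08 on the log2 scale. Falls reached -1.80 for CDC45, which joins the helicase, and -1.82 for UHRF1, which guides DNA methylation after replication. RRM2, a subunit of ribonucleotide reductase, averaged 35.5 ± 2.43 CPM with E2F2 siRNA and 109 ± 24.8 CPM with control siRNA (SD, n = 3; log2 fold change -1.62 ± 0.14). Not every member passed the test, which does not show that those left out were unchanged. Among them were the cyclin E genes CCNE1 (log2 fold change -0.28 ± 0.12, adjusted p = 0.101) and CCNE2 (0.23 ± 0.31, adjusted p = 0.622), themselves known E2F targets. The helicase subunit MCM6 (-0.19 ± 0.09, adjusted p = 0.121) was not called either. With replicates 1 and 2 alone 51 of the 52 were lower.

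Genes of G2/M and mitosis fell as the replication genes did, with a median of -1.55. Of 55 tested, 49 were lower (89.1%) and none higher. BIRC5, which encodes survivin of the chromosomal passenger complex, had 19.3, 20.1 and 21.0 CPM in the E2F2 siRNA libraries, against 77.7, 70.4 and 79.8 CPM in the control siRNA libraries (log2 fold change -1.91 ± 0.10 (SE), adjusted p = 4.7e-09). TPX2, a spindle assembly factor that activates Aurora A, had 35.8, 38.1 and 42.2 CPM with E2F2 siRNA and 136, 139 and 120.1 CPM with control siRNA (log2 fold change -1.77 ± 0.09 (SE), adjusted p = 5.29e-09). Every E2F2 siRNA library was below every control library for both. The chromokinesin KIF4A (-1.78 ± 0.10) and securin, PTTG1 (-1.90 ± 0.12), fell as well, on the log2 scale. CDC20, an activator of the anaphase-promoting complex, averaged 16.6 ± 1.72 CPM with E2F2 siRNA and 69.5 ± 13.7 CPM with control siRNA (SD, n = 3; log2 fold change -2.06 ± 0.18 (SE), adjusted p = 4.45e-07). The transcription factors that drive these genes were lower as well: MYBL2 changed by a log2 value of -1.95 ± 0.16 and FOXM1 by -1.87 ± 0.18. MKI67, the source of the Ki-67 proliferation antigen, averaged 101 ± 15.9 CPM with E2F2 siRNA and 318 ± 31.2 CPM with control siRNA (log2 fold change -1.66 ± 0.16 (SE), adjusted p = 1.22e-06). The 6 members not called all had negative log2 fold changes, from -1.41 (TTK, adjusted p = 0.0663) to -0.85 (SMC2), and with replicates 1 and 2 alone all 55 were called lower. Control replicate 3 was the lowest control library in the median of this list.

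**Figure D2:**
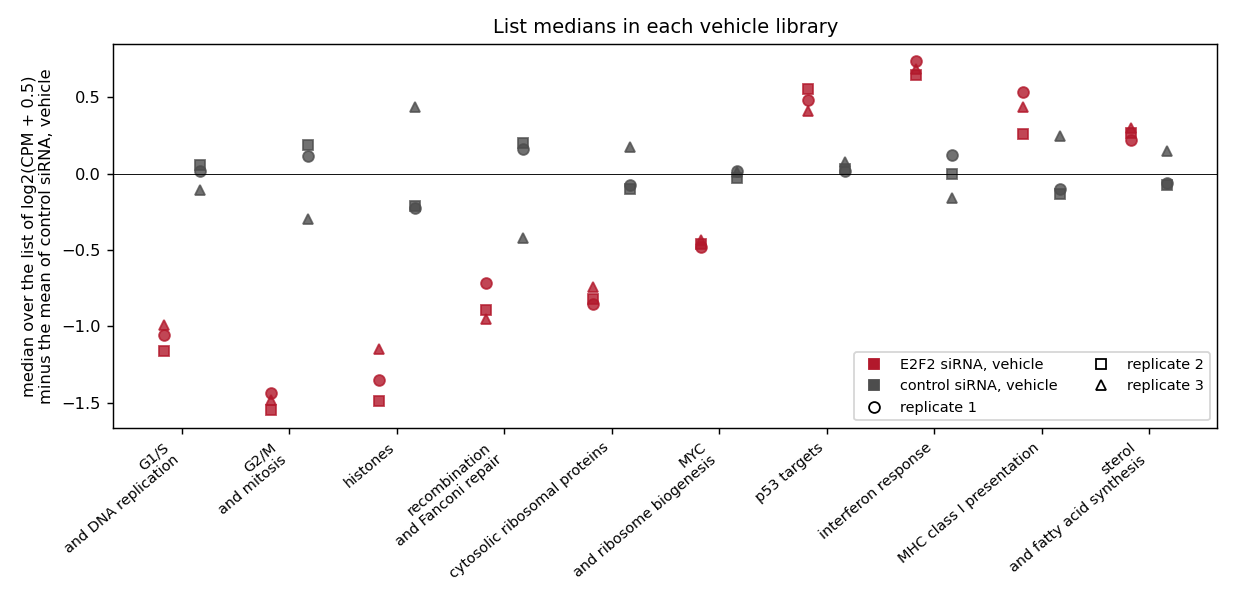
Median over each list of log2(CPM + 0.5) minus the mean of the control siRNA vehicle libraries, for the 3 E2F2 siRNA libraries (red, left) and the 3 control siRNA libraries (grey, right) with vehicle; the symbol gives the replicate number. For G2/M and mitosis the E2F2 siRNA libraries were at -1.44, -1.55 and -1.48 and the control libraries at 0.12, 0.18 and -0.30; for the interferon response the E2F2 siRNA libraries were at 0.73, 0.65 and 0.68.

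The promoters of these genes are printed because the lists that moved differ in the letters they hold. The windows come from the RefSeq promoter table (GRCh38.p14, 250 bases before to 50 after the annotated start), which had a window for 10704 of the 15185 tested genes, and each excerpt is 100 bases, 5′ to 3′ on the gene's strand, with matches in capitals. The E2F forms were counted together on both strands, TTTCCCGC, TTTGGCGC, TTTCGCGC and TTTGCCGC, as was the CHR element of mitotic genes, TTTGAA; E2F matches and CHR matches were counted separately. TYMS lies at chr18:657568-657667 (plus strand), TFDP1 at chr13:113584587-113584686 (plus strand), E2F2 itself at chr1:23531222-23531321 (minus strand), E2F1 at chr20:33686366-33686465 (minus strand) and KIF4A at chrX:70290023-70290122 (plus strand). Capitals mark E2F forms in the first 4 and CHR in the last:
TYMS: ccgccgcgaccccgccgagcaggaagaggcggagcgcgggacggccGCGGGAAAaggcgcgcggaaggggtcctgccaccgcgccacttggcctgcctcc
TFDP1: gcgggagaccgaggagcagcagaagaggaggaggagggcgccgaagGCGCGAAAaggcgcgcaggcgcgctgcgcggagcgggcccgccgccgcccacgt
E2F2: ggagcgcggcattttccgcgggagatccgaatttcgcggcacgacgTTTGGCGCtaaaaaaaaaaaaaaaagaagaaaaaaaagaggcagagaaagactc
E2F1: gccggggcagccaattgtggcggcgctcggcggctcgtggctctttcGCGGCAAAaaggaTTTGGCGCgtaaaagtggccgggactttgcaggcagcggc
KIF4A: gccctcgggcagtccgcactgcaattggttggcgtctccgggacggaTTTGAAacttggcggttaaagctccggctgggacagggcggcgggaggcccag
An E2F form was found in 20 of 45 promoters of the G1/S and replication list (44.4%), against 3.33% of the 27305 promoters in the table and 5.4% of tested genes. A CHR match was found in 35 of 48 promoters of the G2/M and mitosis list (72.9%), against 15.4% of the table and 9.43% of tested genes. The lists crossed little: 3 of 48 mitotic promoters (6.25%) held an E2F form and 2 of 45 replication promoters (4.44%) a CHR match. Among all genes called lower by at least 2-fold, 56 of 327 (17.1%) had an E2F form and 91 (27.8%) a CHR match, against 18 of 477 (3.77%) and 59 (12.4%) of genes called higher by at least 2-fold. A match is a run of letters and does not show that a factor was bound.

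**Figure D3:**
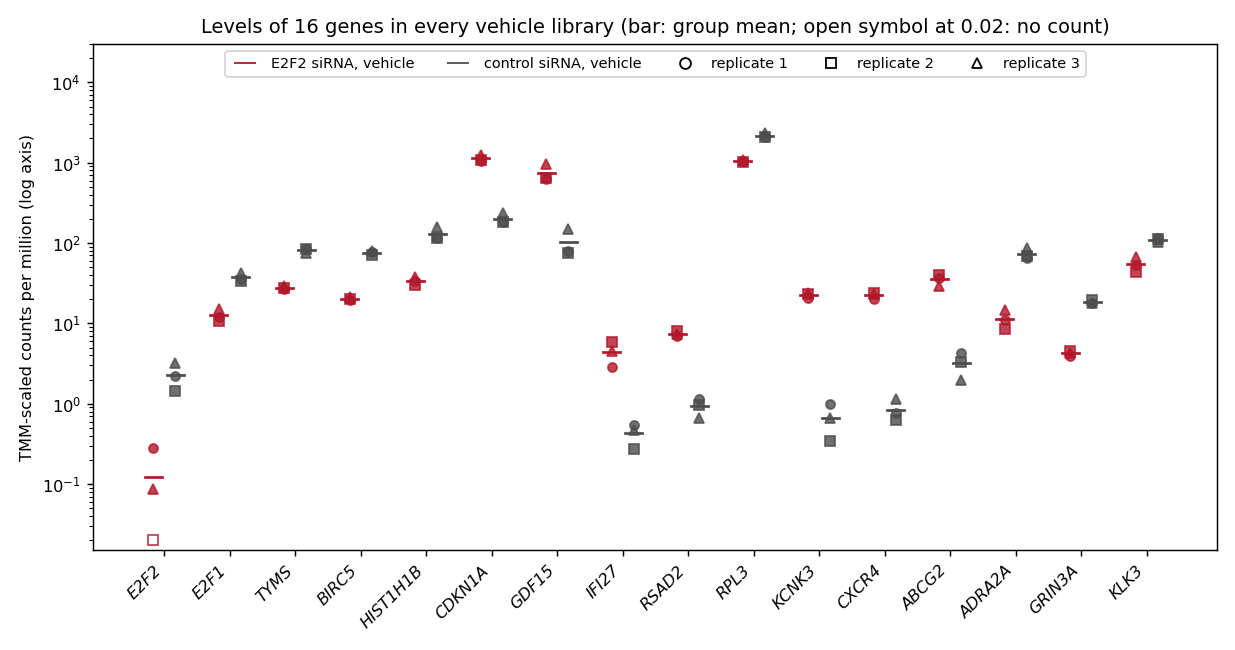
TMM-scaled CPM on a log axis for 16 genes in every vehicle library, E2F2 siRNA (red) left of control siRNA (grey); bars are group means, symbols are replicates and an open symbol at 0.02 stands for a library with no count. For all 16 genes the 3 E2F2 siRNA libraries lie wholly above or wholly below the 3 control libraries. For those taken from the largest rises and falls this was a condition of the choice.

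Replication-dependent histones, which are made in S phase to pack new DNA, fell with the replication genes. Of 45 tested, 40 were lower (88.9%) and 2 higher, and the median log2 fold change was -1.45. The linker histone gene HIST1H1B had 33.4, 30.0 and 38.2 CPM with E2F2 siRNA, against 116, 117 and 158 CPM with control siRNA (log2 fold change -1.94 ± 0.16 (SE), adjusted p = 3.78e-07). HIST1H4C, one of the H4 genes, had 33.6, 33.6 and 35.7 CPM with E2F2 siRNA and 91.9, 92.1 and 103 CPM with control siRNA (log2 fold change -1.48 ± 0.12 (SE), adjusted p = 2.87e-07). The groups were apart for both, and the third replicate was the highest of its group in each. HIST1H4B (-1.39 ± 0.10) and HIST1H2BM (-1.93 ± 0.18) fell too. The members called higher were HIST2H2BE (0.33 ± 0.09) and HIST1H3E (0.32 ± 0.09), 1 of which lost its call when replicate 1 or 2 of E2F2 siRNA or replicate 1 of control siRNA was left out. Fitted alone, the 6 libraries gave none higher and 33 lower, and without a filter on low counts none was higher. A CCAAT box was found in 31 of 36 histone promoters (86.1%), against 37.2% of tested genes. Histone genes are near-identical copies, so a value for a single histone gene is uncertain.

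Genes of homologous recombination and the Fanconi pathway, which repair broken and crosslinked DNA behind the fork, were lower in 22 of 35 (62.9%) and higher in none, at a median of -1.07. CLSPN, the adaptor that lets the ATR kinase activate CHK1, had 11.2, 11.3 and 14.5 CPM with E2F2 siRNA and 37.5, 38.2 and 29.0 CPM with control siRNA (log2 fold change -1.5 ± 0.13 (SE), adjusted p = 7.75e-07). FANCD2, the clamp that is ubiquitinated at crosslinks, had 30.0, 30.3 and 30.4 CPM with E2F2 siRNA, against 72.4, 71.4 and 52.3 CPM with control siRNA (log2 fold change -1.11 ± 0.11 (SE), adjusted p = 2.27e-06). Its E2 enzyme UBE2T (-1.0 ± 0.09) and the fork protein TIMELESS (-1.14 ± 0.12) also fell. Upstream kinase ATR was not called (0.31 ± 0.31, adjusted p = 0.484), and neither was BRCA2 (-1.07 ± 0.47, adjusted p = 0.106). The replicate block left 26 lower and 1 higher.

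Chromatin genes of the dividing cell were lower in 20 of 34 (58.8%), with 1 higher (H2AFY, 0.18 ± 0.06) and a median of -0.46. HMGB2, a DNA-bending protein, had 29.7, 27.4 and 29.8 CPM with E2F2 siRNA, against 88.7, 96.0 and 102 CPM with control siRNA (log2 fold change -1.72 ± 0.09 (SE), adjusted p = 6.71e-09). Lamin B1, LMNB1, had 49.0, 48.6 and 59.8 CPM with E2F2 siRNA and 145, 139 and 144 CPM with control siRNA (log2 fold change -1.44 ± 0.11 (SE), adjusted p = 9.71e-08). The groups did not overlap in either. The nucleosome-binding protein HMGN2 (-0.81 ± 0.08), the maintenance methyltransferase DNMT1 (-1.08 ± 0.13), the histone chaperone ASF1B (-1.84 ± 0.20) and the polycomb methyltransferase EZH2 (-0.70 ± 0.14) fell, whereas the polycomb subunit SUZ12 was not called (0.76 ± 0.34, adjusted p = 0.112). H2AFY kept no call when any library but control replicate 3 was left out, and the 6 libraries fitted alone gave none higher and 13 lower.

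Within the E2F and RB family, E2F1 and E2F2 apart, 6 of 17 members were lower (35.3%) and 1 was higher (5.88%), at a median of -0.28. The repressor E2F7 had 4.62, 3.40 and 3.96 CPM with E2F2 siRNA, against 14.1, 14.7 and 11.1 CPM with control siRNA (log2 fold change -1.73 ± 0.18 (SE), adjusted p = 2.58e-06). Its partner repressor E2F8 had 4.07, 2.93 and 4.74 CPM with E2F2 siRNA and 15.6, 12.9 and 11.3 CPM with control siRNA (log2 fold change -1.75 ± 0.18 (SE), adjusted p = 2.67e-06). Both repressors are transcribed late in G1 as targets of the activators. TFDP1, the DP partner whose promoter is printed above, had 50.03, 55.0 and 53.5 CPM with E2F2 siRNA and 70.3, 72.4 and 85.2 CPM with control siRNA (log2 fold change -0.52 ± 0.09 (SE), adjusted p = 0.000361). RBL2, the p130 pocket protein of resting cells, was the member that rose, with 391, 400.2 and 345 CPM under E2F2 siRNA and 225, 236 and 149 CPM under control siRNA (log2 fold change 0.90 ± 0.16 (SE), adjusted p = 0.000534). The pocket protein p107, RBL1, fell (-0.73 ± 0.23, adjusted p = 0.0246). The third activator E2F3 (-0.28 ± 0.12, adjusted p = 0.0849), the repressor-type E2F4 (-0.32 ± 0.19, adjusted p = 0.226) and RB1 (0.29 ± 0.32, adjusted p = 0.543) did not pass the test. With a replicate block 2 were higher and 10 lower, without control replicate 3 10 were lower, and 3 were lower when the 6 libraries were fitted alone.

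CDK inhibitors and G1 regulators split, with 5 of 15 higher (33.3%, beside 14.2% of all genes), 5 lower (33.3%, beside 13.1%) and a median of -0.08. CDKN1A, the p21 inhibitor of CDK2, had 1060.2, 1075 and 1256 CPM in the E2F2 siRNA libraries, against 182, 185 and 237 CPM in the control siRNA libraries. It rose 5.62-fold (log2 fold change 2.49 ± 0.12 (SE), adjusted p = 3.67e-09), and every E2F2 siRNA library was far above the highest control library. CDKN2B, the p15 inhibitor of CDK4 and CDK6, averaged 9.19 ± 1.5 CPM with E2F2 siRNA and 3.21 ± 0.742 CPM with control siRNA (SD, n = 3; log2 fold change 1.52 ± 0.19 (SE), adjusted p = 2.65e-05). The p27 gene CDKN1B was not called (-0.13 ± 0.09, adjusted p = 0.322). The kinases CDK4 (-0.78 ± 0.09) and CDK2 (-0.78 ± 0.10) fell, as did SKP2 (-1.07 ± 0.13), the ubiquitin ligase subunit that marks p27 and p21 for destruction, and the inhibitors CDKN2C (-1.17 ± 0.17) and CDKN2A (-1.04 ± 0.23). Leaving out replicate 1 or 2 of E2F2 siRNA, or replicate 2 or 3 of control siRNA, left 2 or 3 members called higher, and fitting the 6 libraries alone left 2.

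Targets of p53 rose. Of 32 tested, 17 were higher (53.1%, beside 14.2% of all genes) and none lower, at a median of 0.43; CDKN1A is one of the 17. GDF15, a secreted member of the TGF-beta family induced by stress, had 622, 647 and 969 CPM with E2F2 siRNA, against 79.2, 75.1 and 151 CPM with control siRNA (log2 fold change 2.88 ± 0.28 (SE), adjusted p = 1.96e-06). GADD45A, a stress-induced inhibitor of the cell cycle, had 17.6, 24.2 and 20.2 CPM with E2F2 siRNA and 9.36, 9.55 and 10.1 CPM with control siRNA (log2 fold change 1.09 ± 0.12 (SE), adjusted p = 7.95e-06). Neither gene's groups overlapped. SPATA18, which acts in mitochondrial quality control, rose as well (1.32 ± 0.15), and so did MDM2, the ubiquitin ligase that degrades p53 (1.08 ± 0.23), the death receptor FAS (1.28 ± 0.32) and PMAIP1, the pro-apoptotic NOXA (1.13 ± 0.26). The pro-apoptotic targets BAX (0.17 ± 0.11, adjusted p = 0.25) and BBC3, or PUMA (0.22 ± 0.15, adjusted p = 0.312), were not called. With replicates 1 and 2 alone 23 of the 32 targets were higher, and with the 6 libraries fitted alone 9, with none lower in either.

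Apoptosis regulators outside that list moved little, with 4 of 22 higher (18.2%, beside 14.2% of all genes), 1 lower and a median of 0.08. BMF, a BH3-only killer protein, had 103, 92.7 and 105 CPM with E2F2 siRNA and 51.7, 46.4 and 70.8 CPM with control siRNA (log2 fold change 0.83 ± 0.14 (SE), adjusted p = 0.000435). The survival gene BCL2 (log2 fold change 0.90 ± 0.22 (SE), adjusted p = 0.00553) and the inhibitor of apoptosis BIRC3 (log2 fold change 1.26 ± 0.39 (SE), adjusted p = 0.0261) were also higher, and the initiator caspase CASP9 lower (log2 fold change -0.52 ± 0.16 (SE), adjusted p = 0.0241). For BIRC3 control replicate 3, at 2.80 CPM, was far below the other 2 control libraries at 9.90 and 10.3 CPM. The BIRC3 call was lost without replicate 1 (adjusted p = 0.0806) or 2 (0.0697) of E2F2 siRNA, and the CASP9 call without replicate 2 of E2F2 siRNA (0.104) or replicate 3 of control siRNA (0.0992). Without replicate 1 of E2F2 siRNA 2 members were higher, with a replicate block 8 were higher and 3 lower, and the 6 libraries fitted alone gave 1 higher and none lower.

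Genes of the interferon response rose. Of 41 tested, 23 were higher (56.1%) and 1, SAMHD1, was lower, at a median of 0.81. IFI6, a mitochondrial and ER membrane protein, had 70.6, 71.0 and 84.3 CPM in the E2F2 siRNA libraries, against 12.5, 13.4 and 15.7 CPM in the control siRNA libraries (log2 fold change 2.44 ± 0.18 (SE), adjusted p = 9.05e-08). IFIT3, which binds viral RNA with its relatives, had 9.89, 10.0 and 10.8 CPM with E2F2 siRNA and 2.00, 2.21 and 1.07 CPM with control siRNA (log2 fold change 2.54 ± 0.24 (SE), adjusted p = 1.07e-06). RSAD2, or viperin, an antiviral enzyme, had 6.94, 8.11 and 7.32 CPM with E2F2 siRNA and 1.15, 0.969 and 0.667 CPM with control siRNA (log2 fold change 3.00 ± 0.26 (SE), adjusted p = 5.51e-07). All 3 genes were low in control cells and none of their groups overlapped. IFI27 had 2.87, 5.94 and 4.48 CPM with E2F2 siRNA, against 0.537, 0.277 and 0.467 CPM with control siRNA (log2 fold change 3.35 ± 0.31 (SE), adjusted p = 1.08e-06), and OAS2, a sensor of double-stranded RNA, rose by a log2 value of 3.64 ± 0.56. ISG15, a ubiquitin-like modifier, rose by 0.53 ± 0.18 (adjusted p = 0.0375), while the antiviral GTPase MX1 at 0.03 ± 0.22 (adjusted p = 0.943) was not called. Control cells also received a double-stranded RNA pool with the same reagent, but whether the pools act differently as double-stranded RNA was not tested. For each vehicle library, the list median of log2(CPM + 0.5) minus the control siRNA vehicle mean was taken. It was 0.735, 0.646 and 0.683 with E2F2 siRNA and 0.515, 0.549 and 0.352 with E2F1 siRNA. With control siRNA it was 0.125, -0.0019 and -0.157. The 6 libraries fitted alone called 12 of 38 higher and none lower.

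The next lines print the promoter excerpts of IFI6, chr1:27672231-27672330 (minus strand), and IFIT3, chr10:89327830-89327929 (plus strand) (RefSeq, GRCh38.p14), because most promoters of this list hold an interferon-stimulated response element. Capitals mark TTTC, any 2 bases and TTTC, on either strand:
IFI6: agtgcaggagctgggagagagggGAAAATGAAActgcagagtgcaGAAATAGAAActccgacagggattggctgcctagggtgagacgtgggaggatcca
IFIT3: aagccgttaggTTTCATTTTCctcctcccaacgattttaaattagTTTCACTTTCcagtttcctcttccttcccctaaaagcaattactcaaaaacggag
This element was found in 20 of 32 promoters of the interferon list (62.5%), against 3.65% of all promoters in the table and 2.72% of tested genes. Genes of MHC class I presentation, which carry peptides to T cells, held it in 9 of 17 promoters (52.9%). Of 20 such genes tested, 8 were higher (40%) and none lower, at a median of 0.51. NLRC5, the transactivator of class I genes, had 9.43, 8.59 and 10.5 CPM with E2F2 siRNA, against 3.30, 2.63 and 5.07 CPM with control siRNA (log2 fold change 1.37 ± 0.19 (SE), adjusted p = 7.47e-05). The class I light chain B2M had 129, 141 and 113 CPM with E2F2 siRNA and 88.4, 95.1 and 60.3 CPM with control siRNA (log2 fold change 0.65 ± 0.15 (SE), adjusted p = 0.00427). No library of one group reached the other group for these 2 genes. The peptide trimming enzyme ERAP1 (0.59 ± 0.14) and the immunoproteasome subunit PSMB8 (1.61 ± 0.43) rose, whereas the heavy chain HLA-C (0.82 ± 0.43, adjusted p = 0.174) did not pass the test. The call of PSMB8 was lost without replicate 2 of E2F2 siRNA (adjusted p = 0.0571), and leaving out replicate 1 or 3 of E2F2 siRNA or replicate 1 or 2 of control siRNA left 4 or 5 members called, while the 6 libraries fitted alone gave 3.

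Cytosolic ribosomal protein genes fell almost as a block. Of 71 tested, 69 were lower (97.2%) and none higher, with a median log2 fold change of -0.82 and a range of -1.42 to -0.35. RPL3, a core protein of the large subunit, had 1043, 1009.5 and 1077 CPM in the E2F2 siRNA libraries, against 2112, 2066 and 2333 CPM in the control siRNA libraries (log2 fold change -1.06 ± 0.07 (SE), adjusted p = 2.57e-08). RPL4, which lines the exit tunnel, had 781, 779.9 and 848 CPM with E2F2 siRNA and 1679, 1649 and 1852 CPM with control siRNA (log2 fold change -1.10 ± 0.08 (SE), adjusted p = 5.6e-08). Within each group the libraries were close, and the groups were far apart. RPL10 (-1.17 ± 0.08) and RPL5 (-0.90 ± 0.06), which with RPL11 binds MDM2 when ribosome assembly fails, fell as well. RPS15 (-0.57 ± 0.22, adjusted p = 0.0704) and RPL39 (-0.35 ± 0.23, adjusted p = 0.286) were the members not called. These genes have many processed pseudogene copies in the genome, and how multi-mapping reads were counted is not given in the sources used here, so single-gene values carry that uncertainty.

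Most ribosomal protein messages begin with a 5′ terminal oligopyrimidine run, which ties their translation to mTOR. The excerpt of the RPL3 promoter, chr22:39319604-39319703 (minus strand) (RefSeq, GRCh38.p14), marks in capitals the C and 4 pyrimidines found within 2 bases of the annotated start:
RPL3: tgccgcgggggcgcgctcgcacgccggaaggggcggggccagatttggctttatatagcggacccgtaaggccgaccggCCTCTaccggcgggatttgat
Such a run was found in 42 of 57 ribosomal protein promoters (73.7%), against 10.5% of the table and 12.3% of tested genes. Short and GC-rich transcripts tended to lie lower in this comparison, so the list was set beside other genes in bins of length and, separately, of GC content. No set of genes was matched for both. The Pearson correlation across 12687 genes, which share the 6 libraries, was 0.173 between log2 fold change and log2 transcript length and -0.282 with GC content. The ribosomal protein transcripts had a median length of 835 bases, 43 of 71 being no longer than 1000 bases. The 1160 other genes of at most 1000 bases had a median log2 fold change of -0.07, with the middle 50% between -0.42 and 0.21. In the bin of highest GC content, 58.6% to 76.8%, the 2525 other genes had a median of -0.19. Their middle 50% lay between -0.45 and 0.05. In a fit with the replicate block and a GC and length correction, chosen after the data were seen, 70 of the 71 were lower and the median was -0.70.

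**Figure D4:**
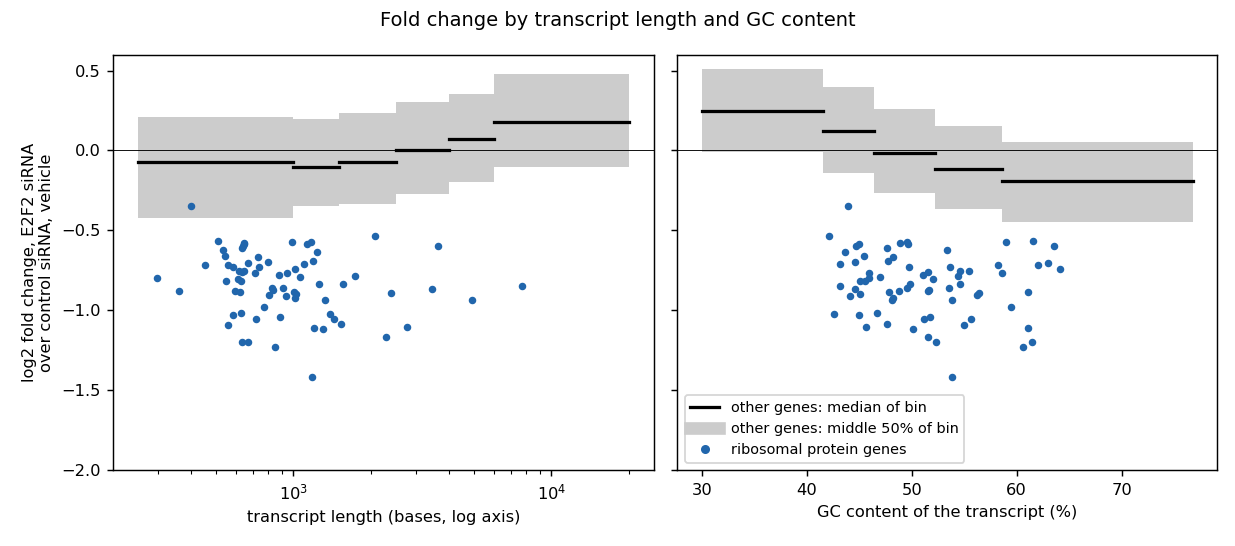
Log2 fold change, E2F2 siRNA over control siRNA with vehicle, against transcript length (left, log axis) and GC content (right) for 71 ribosomal protein genes (blue points) and for other genes in bins (black line: median; grey: middle 50%). The ribosomal protein genes, between -1.42 and -0.35, lie mostly below the grey band at every length and GC content shown.

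MYC and genes of ribosome biogenesis were lower in 22 of 34 (64.7%) and higher in none, at a median of -0.47. MYC, the growth regulator that drives these genes, had 78.1, 72.1 and 105 CPM with E2F2 siRNA, against 172, 168 and 272 CPM with control siRNA (log2 fold change -1.26 ± 0.20 (SE), adjusted p = 0.000178). FBL, the methyltransferase fibrillarin of the nucleolus, had 50.4, 45.1 and 52.7 CPM with E2F2 siRNA and 103, 97.1 and 115 CPM with control siRNA (log2 fold change -1.09 ± 0.09 (SE), adjusted p = 3.03e-07). NOLC1, a chaperone of nucleolar ribonucleoproteins, had 129.7, 125 and 125 CPM with E2F2 siRNA and 226, 235 and 259.7 CPM with control siRNA (log2 fold change -0.92 ± 0.07 (SE), adjusted p = 1.14e-07). The groups did not overlap in any of the 3. NOP16 (-0.90 ± 0.11) and BYSL (-0.92 ± 0.12), which act in assembly of the ribosomal subunits, fell, whereas the nucleolar protein NOP58 (-0.20 ± 0.20, adjusted p = 0.495) and the polyamine enzyme ODC1 (-0.30 ± 0.11, adjusted p = 0.0581), a MYC target, were not called. The 6 libraries fitted alone gave 12 lower.

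Androgen-responsive genes were measured here without added androgen, and they moved in both directions. Of 41 androgen-induced genes, 9 were higher (22%, beside 14.2% of all genes) and 7 lower (17.1%, beside 13.1%), with a median of 0.12. KLK3, which encodes prostate-specific antigen, had 53.9, 44.2 and 66.3 CPM with E2F2 siRNA, against 115, 113 and 103 CPM with control siRNA (log2 fold change -1.0 ± 0.12 (SE), adjusted p = 1.49e-05). TSC22D3, a steroid-induced leucine zipper protein, had 23.2, 19.4 and 22.7 CPM with E2F2 siRNA and 39.1, 36.8 and 43.2 CPM with control siRNA (log2 fold change -0.86 ± 0.10 (SE), adjusted p = 1.06e-05). Both fell without overlap. In control siRNA cells, mean CPM was higher with R1881 than with vehicle for 39 of the 41, but TSC22D3 was not, with 30.9, 27.4 and 31.6 CPM with R1881. Some members lowered here are genes of the cell cycle as well, such as the kinetochore protein CENPN (-0.91 ± 0.15) and the condensin subunit NCAPD3 (-0.78 ± 0.14). The retinaldehyde dehydrogenase ALDH1A3, by contrast, had 68.3, 69.8 and 73.0 CPM with E2F2 siRNA and 38.6, 45.4 and 36.1 CPM with control siRNA (log2 fold change 0.81 ± 0.12 (SE), adjusted p = 0.000124). TMPRSS2 (0.23 ± 0.09, adjusted p = 0.0657), KLK2 (-0.40 ± 0.16, adjusted p = 0.0671) and FKBP5 (-0.08 ± 0.12, adjusted p = 0.659), a co-chaperone of steroid receptors, were not called. Under the replicate block 16 were higher and 10 lower, whereas fitting the 6 libraries alone gave 3 higher and 6 lower of 35.

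Of 24 androgen-repressed genes, 8 were higher (33.3%) and 7 lower (29.2%), at a median of -0.21. GRIN3A, an NMDA receptor subunit, had 3.98, 4.53 and 4.31 CPM with E2F2 siRNA, against 18.0, 19.5 and 17.7 CPM with control siRNA (log2 fold change -2.11 ± 0.11 (SE), adjusted p = 5.01e-09). OPRK1, the kappa opioid receptor, had 172, 166 and 149.8 CPM with E2F2 siRNA and 89.6, 87.5 and 73.1 CPM with control siRNA (log2 fold change 0.96 ± 0.13 (SE), adjusted p = 3.75e-05). The one lay wholly below and the other wholly above the control libraries. In control siRNA cells 18 of the 24 had a mean CPM no higher with R1881 than with vehicle, OPRK1 among them, but GRIN3A went against the name of the list, with 38.6, 35.0 and 33.8 CPM with R1881. CAMK2N1, an inhibitor of the kinase CaMKII, rose (0.71 ± 0.09), and ST7 fell (-1.03 ± 0.09). UGT2B17 (1.24 ± 0.26) and UGT2B15 (1.17 ± 0.22), which glucuronidate androgens, rose, but members of the UGT2B family are near-identical and their reads may be split between copies. Without control replicate 3, 11 members were lower, and the 6 libraries fitted alone gave 5 higher and 5 lower of 23.

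Luminal epithelial genes did not move as a group, with 5 of 20 higher (25%), 4 lower (20%) and a median of 0.11. KRT19, a keratin of simple epithelia, had 4.53, 6.51 and 6.72 CPM with E2F2 siRNA, against 1.23, 1.25 and 1.47 CPM with control siRNA (log2 fold change 2.16 ± 0.25 (SE), adjusted p = 9.93e-06). The epithelial factor ELF3 (1.0 ± 0.13) and the tight junction protein OCLN (0.51 ± 0.08) rose, and E-cadherin, CDH1, fell by 0.36 ± 0.07 on the log2 scale. The pioneer factor FOXA1 (-0.32 ± 0.07) was lower, while KRT18 (0.03 ± 0.14, adjusted p = 0.891) and EPCAM (0.19 ± 0.13, adjusted p = 0.301) were not called. Of 6 neuroendocrine genes 1 was called, beside 27.3% of all genes. It was STMN1, a tubulin-binding protein of dividing cells, which fell (log2 fold change -1.5 ± 0.11 (SE), adjusted p = 6.7e-08). Of 6 markers of other cell types 1 was called: VWF, the clotting factor of endothelium, had 46.0, 43.1 and 45.6 CPM with E2F2 siRNA and 13.6, 13.3 and 17.4 CPM with control siRNA (log2 fold change 1.6 ± 0.15 (SE), adjusted p = 1.2e-06). The endothelial markers PECAM1, with 0 counts with E2F2 siRNA and 4 with control siRNA, and CDH5, with none, were at or near 0. For the luminal list the 6 libraries fitted alone gave 3 higher and 1 lower.

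Genes of sterol and fatty acid synthesis were higher in 9 of 35 (25.7%) and lower in 2 (5.71%), with a median of 0.28. SCD, the desaturase that makes oleic acid, had 1573, 1647 and 1568 CPM with E2F2 siRNA, against 839, 806 and 755 CPM with control siRNA (log2 fold change 1.0 ± 0.06 (SE), adjusted p = 2.57e-08). SQLE, the squalene epoxidase, had 62.2, 62.9 and 65.3 CPM with E2F2 siRNA and 41.0, 41.2 and 36.0 CPM with control siRNA (log2 fold change 0.69 ± 0.08 (SE), adjusted p = 1.8e-05). Neither gene's groups overlapped. The acetyl-CoA synthetase ACSS2 (0.51 ± 0.10) and the sterol carrier STARD4 (2.04 ± 0.43) rose, and the isomerase EBP fell (-0.68 ± 0.13). Fatty acid synthase, FASN (-0.05 ± 0.22, adjusted p = 0.879), was not called. Under the replicate block 20 were higher and 3 lower, and without control replicate 3 14 were higher; the 6 libraries fitted alone gave 3 higher and 1 lower.

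The endoplasmic reticulum stress and ATF4 list had 10 of 35 members lower (28.6%, beside 13.1% of all genes), at a median of -0.10. The 4 called higher (11.4%) were near the 14.2% of all genes. PDIA4, a disulfide isomerase, had 115, 109 and 126 CPM with E2F2 siRNA, against 263, 243 and 299.6 CPM with control siRNA (log2 fold change -1.20 ± 0.09 (SE), adjusted p = 1.37e-07). PHGDH, the first enzyme of serine synthesis, had 147, 145 and 156 CPM with E2F2 siRNA and 266, 267 and 354 CPM with control siRNA (log2 fold change -0.99 ± 0.12 (SE), adjusted p = 1.21e-05). The serine phosphatase PSPH (-0.76 ± 0.08), the mitochondrial folate enzymes SHMT2 (-0.67 ± 0.13) and MTHFD2 (-0.84 ± 0.16), and ATF4 itself (-0.74 ± 0.13) fell. ATF3, a stress factor that counts in the immediate early list as well, had 55.8, 56.1 and 60.2 CPM with E2F2 siRNA and 20.3, 23.5 and 23.5 CPM with control siRNA (log2 fold change 1.35 ± 0.09 (SE), adjusted p = 5.16e-08). The chaperone HSPA5 (0.16 ± 0.08, adjusted p = 0.148) and the pro-apoptotic factor DDIT3, or CHOP (0.31 ± 0.13, adjusted p = 0.0872), were not called. Under the replicate block 10 were higher and 13 lower, and without control replicate 3 7 were higher, while the 6 libraries fitted alone gave 3 higher and 6 lower.

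Of 30 genes of glycolysis and the hypoxia response, 8 were higher (26.7%) and 3 lower (10%), at a median of 0.15. EGLN3, an oxygen-sensing prolyl hydroxylase, had 87.8, 90.3 and 92.1 CPM with E2F2 siRNA, against 37.4, 34.5 and 31.6 CPM with control siRNA (log2 fold change 1.39 ± 0.13 (SE), adjusted p = 1.28e-06). The mitophagy receptor BNIP3 had 165, 172 and 192 CPM with E2F2 siRNA and 110.4, 107 and 109.8 CPM with control siRNA (log2 fold change 0.69 ± 0.10 (SE), adjusted p = 6.06e-05). Both were separate between groups. The carbonic anhydrase CA12 (0.62 ± 0.08) rose and the lactate dehydrogenase subunit LDHB (-0.75 ± 0.11) fell. The glucose transporter SLC2A1 (0.46 ± 0.18, adjusted p = 0.0697) and the muscle-type pyruvate kinase gene PKM (0.05 ± 0.14, adjusted p = 0.845) were not called. With a replicate block 15 were higher and 6 lower, and without replicate 3 of E2F2 siRNA 5 were higher and 5 lower. The 6 libraries fitted alone gave 4 higher and 2 lower of 29.

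Immediate early and ERK feedback genes were higher in 6 of 22 (27.3%), with MYC the member that fell and a median of 0.33. FOS, a subunit of the AP-1 factor, had 3.42, 3.59 and 4.31 CPM with E2F2 siRNA, against 0.537, 0.623 and 0.601 CPM with control siRNA (log2 fold change 2.66 ± 0.24 (SE), adjusted p = 9.25e-07). SPRY4, a feedback inhibitor of receptor signalling, had 10.7, 12.1 and 11.4 CPM with E2F2 siRNA and 2.53, 3.25 and 5.00 CPM with control siRNA (log2 fold change 1.65 ± 0.25 (SE), adjusted p = 0.000121). EGR1 averaged 6.05 ± 0.551 CPM with E2F2 siRNA and 1.28 ± 1.09 CPM with control siRNA (SD, n = 3; log2 fold change 2.21 ± 0.36 (SE), adjusted p = 0.000247). All were low in CPM, and the FOS partner JUN was not called (0.28 ± 0.16, adjusted p = 0.219). In the blocked fit 10 were higher and 2 lower.

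Lysosome and autophagy genes were higher in 10 of 36 (27.8%) and lower in 1, at a median of 0.20. SQSTM1, the autophagy cargo receptor p62, had 774, 798 and 895 CPM with E2F2 siRNA, against 411, 415 and 583 CPM with control siRNA (log2 fold change 0.81 ± 0.12 (SE), adjusted p = 0.000104). GABARAPL1, which marks autophagosome membranes, had 91.5, 97.4 and 90.1 CPM with E2F2 siRNA and 56.9, 58.2 and 54.8 CPM with control siRNA (log2 fold change 0.72 ± 0.08 (SE), adjusted p = 1.05e-05). The groups were apart for both. Its relative GABARAPL2 (0.80 ± 0.16), the cholesterol exporter NPC1 (0.57 ± 0.06) and the lysosomal regulator TFEB (0.96 ± 0.24) rose, but LAMP1 (-0.03 ± 0.12, adjusted p = 0.863) was not called. In the blocked fit 17 were higher and 4 lower, and with the 6 libraries fitted alone 5 and none. Without replicate 1 or 2 of E2F2 siRNA, or without control replicate 3, none was lower.

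Contractile and cytoskeletal genes were higher in 8 of 21 (38.1%) and lower in 4 (19%), at a median of 0.20. Tropomyosin, TPM1 (0.67 ± 0.07), and the adhesion protein vinculin, VCL (0.57 ± 0.07), rose, while non-muscle myosin MYH10 (-0.76 ± 0.06) and calponin CNN2 (-1.06 ± 0.17) fell. Without replicate 1 of E2F2 siRNA 2 were lower, and the 6 libraries fitted alone gave 3 higher and 2 lower of 20. Of 13 mitochondrially encoded genes 2 were higher (15.4%), near the 14.2% of all genes. They were MT-ND4L (0.45 ± 0.13, adjusted p = 0.0161) and MT-ND4 (0.38 ± 0.12, adjusted p = 0.0251), both subunits of complex I. Leaving out replicate 2 of E2F2 siRNA ended both calls (adjusted p = 0.0544 for MT-ND4L and 0.0535 for MT-ND4). The MT-ND4L call was also lost without control replicate 3 (0.0564), and that of MT-ND4 without replicate 3 of E2F2 siRNA (0.0969) or replicate 1 (0.0777) or 2 (0.0597) of control siRNA, whereas 9 of the 13 were higher with a replicate block and none with the 6 libraries fitted alone.

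In a list of genes linked to senescence, most of them secreted or in the NF-kB pathway, 3 of 12 were higher (25%) and 5 lower (41.7%), at a median of -0.17. IL1B, the inflammatory cytokine interleukin-1 beta, had 13.0, 16.4 and 13.8 CPM with E2F2 siRNA, against 2.15, 1.45 and 2.40 CPM with control siRNA (log2 fold change 2.84 ± 0.25 (SE), adjusted p = 6.16e-07). IGFBP3, which binds insulin-like growth factors, had 13.8, 15.1 and 12.1 CPM with E2F2 siRNA and 47.3, 46.6 and 59.8 CPM with control siRNA (log2 fold change -1.91 ± 0.17 (SE), adjusted p = 8.18e-07). No library of one group reached the other for either gene. The inhibitor of NF-kB signalling TNFAIP3 rose (0.86 ± 0.18). The NF-kB inhibitor gene NFKBIA was not called (-0.06 ± 0.10, adjusted p = 0.726). HMGB2 and LMNB1, given above, are among the 5 that fell; they encode nuclear proteins known to be low in senescent cells, and they are also counted in the chromatin list. The 6 libraries fitted alone gave 1 higher and 3 lower of 10.

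Outside the lists, the largest rises among genes averaging at least 1 on the log2 CPM scale over all 18 libraries included a channel, a receptor and a transporter. KCNK3, a leak potassium channel, had 20.4, 23.5 and 24.0 CPM in the E2F2 siRNA libraries, against 0.998, 0.346 and 0.667 CPM in the control siRNA libraries. It rose 33.7-fold (log2 fold change 5.08 ± 0.26 (SE), adjusted p = 1.47e-08). CXCR4, the receptor of the chemokine CXCL12, had 19.9, 23.9 and 23.4 CPM with E2F2 siRNA and 0.767, 0.623 and 1.13 CPM with control siRNA, a rise of 26.2-fold (log2 fold change 4.71 ± 0.20 (SE), adjusted p = 1.64e-09). Both genes were close to silent in control cells. ABCG2, the drug efflux transporter, had 36.9, 39.5 and 29.5 CPM with E2F2 siRNA, against 4.22, 3.32 and 2.00 CPM with control siRNA (log2 fold change 3.48 ± 0.31 (SE), adjusted p = 8.16e-07). MYNN, a zinc finger protein, had 474, 504 and 386 CPM with E2F2 siRNA and 69.99, 70.8 and 27.7 CPM with control siRNA (log2 fold change 3.02 ± 0.31 (SE), adjusted p = 3.2e-06), and control replicate 3 was lower than the other control libraries in both. The peptide gene NPPC (3.75 ± 0.48), the glutamate transporter SLC1A2 (3.32 ± 0.54) and the non-coding genes MCPH1-AS1 (3.85 ± 0.30), CCDC144CP (3.41 ± 0.28) and CRHR1-IT1 (3.13 ± 0.70) rose too, and OAS2, IFI27, RSAD2 and GDF15, given above, are among the 14 largest. SLC1A2 changed by 4.08 without control replicate 2 and by 2.72 without control replicate 3. CTNNA2, an alpha-catenin, held 10 counts with E2F2 siRNA and 1 with control siRNA, a ratio of 12.9 after scaling for library size with a 95% counting interval of 1.83 to 558. It reached the minimum level through the R1881 libraries, with 6.59, 4.68 and 4.91 CPM with E2F2 siRNA and R1881. MCPH1-AS1 is antisense to MCPH1 and CCDC144CP belongs to a family of copies, so their reads are uncertain without the strand and multi-mapping settings.

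Among the largest falls, ADRA2A, an adrenergic receptor of the inhibitory kind, had 10.9, 8.59 and 14.6 CPM with E2F2 siRNA, against 65.9, 68.6 and 87.7 CPM with control siRNA (log2 fold change -2.70 ± 0.17 (SE), adjusted p = 2.47e-08). The neuropeptide gene NMU had 0.277, 0.660 and 1.03 CPM with E2F2 siRNA and 3.68, 3.60 and 2.80 CPM with control siRNA (log2 fold change -2.32 ± 0.31 (SE), adjusted p = 4.62e-05). PEG10, an imprinted gene derived from a retrotransposon, had 0.647, 0.660 and 0.775 CPM with E2F2 siRNA and 2.61, 3.87 and 3.27 CPM with control siRNA (log2 fold change -2.21 ± 0.28 (SE), adjusted p = 2.73e-05). All 3 lay wholly below the control libraries, as the rule that chose them required. The p53 regulator GTSE1 (-2.09 ± 0.14), the mitotic protein FAM64A (-2.10 ± 0.19) and citron kinase, CIT (-2.07 ± 0.17), which completes cytokinesis, fell as well, and 4 of the 14 largest falls were histone genes: HIST1H2AL (-2.26 ± 0.36), HIST1H2AH (-2.26 ± 0.36), HIST1H2AJ (-2.24 ± 0.44) and HIST1H3I (-2.12 ± 0.49). NMU changed by -2.94 with replicates 1 and 2 alone. HIST1H2AJ changed by -1.65 without control replicate 3, and HIST1H3I by -2.76 without replicate 3 of E2F2 siRNA. Reelin adaptor DAB1 (-2.24 ± 0.31), the thrombin inhibitor SERPIND1 (-2.24 ± 0.29), the lectin REG4 (-2.11 ± 0.29) and GRIN3A, given above, complete the 14. SERPIND1 lay below the minimum level in both groups and reached it through other libraries of the series. Its levels are given below with the E2F1 comparison.

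Whether the response to E2F2 siRNA without androgen differs from that with 0.1 nM R1881 was tested as the difference of the fold changes of both arms, which have control libraries of their own. The difference passed the test for 135 of 15185 genes (0.889%): 50 (0.329%) with a higher log2 fold change with vehicle and 85 (0.56%) with a lower one. With R1881, 4601 genes were called (30.3%), and 2814 genes were called in both arms with the same sign, which is 67.9% of the vehicle calls and 61.2% of the R1881 calls. The call depends on the spread: 658 genes passed with a replicate block and 1767 with replicates 1 and 2 alone. It also turns on single libraries, with 60, 59 and 74 genes when replicate 1, 2 or 3 of E2F2 siRNA vehicle was left out, and 80 and 208 when replicate 1 or 3 of control siRNA vehicle was left out.

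IGFBP3 had opposite signs in the arms. Its levels with vehicle are given above, and with R1881 it had 26.0, 33.7 and 26.7 CPM with E2F2 siRNA, against 15.4, 11.7 and 10.4 CPM with control siRNA. The log2 fold change was -1.91 with vehicle and 1.20 with R1881, and the difference was -3.11 ± 0.24 (SE, adjusted p = 8.6e-06). GRIN3A had 28.1, 29.5 and 31.7 CPM with E2F2 siRNA and R1881, against 38.6, 35.0 and 33.8 CPM with control siRNA and R1881, so that its difference was -1.84 ± 0.14 (adjusted p = 8.6e-06). CXCR4 had 11.7, 11.1 and 11.8 CPM with E2F2 siRNA and R1881, against 1.74, 1.71 and 2.25 CPM with control siRNA and R1881. It rose in both arms, by a log2 value of 4.71 with vehicle and 2.61 with R1881, a difference of 2.10 ± 0.29 (adjusted p = 0.00215). The adhesion linker DST (difference 1.53 ± 0.18), the popeye protein BVES (1.73 ± 0.29), FAM65B (1.84 ± 0.21) and TMTC2 (1.44 ± 0.14) were also further above control with vehicle. MYOZ1 (-2.09 ± 0.38), SLC25A34 (-1.90 ± 0.41) and REG4 (-2.50 ± 0.50) had lower fold changes with vehicle, and the adjusted p of REG4 and SLC25A34 passed 0.05 when replicate 1 (0.0809 and 0.11) or 2 (0.0778 and 0.101) of E2F2 siRNA vehicle was left out. That of SLC25A34 also passed it without replicate 3 of E2F2 siRNA vehicle (0.0697) and without replicate 1 (0.0683) or 3 (0.0605) of control siRNA vehicle.

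**Figure D5:**
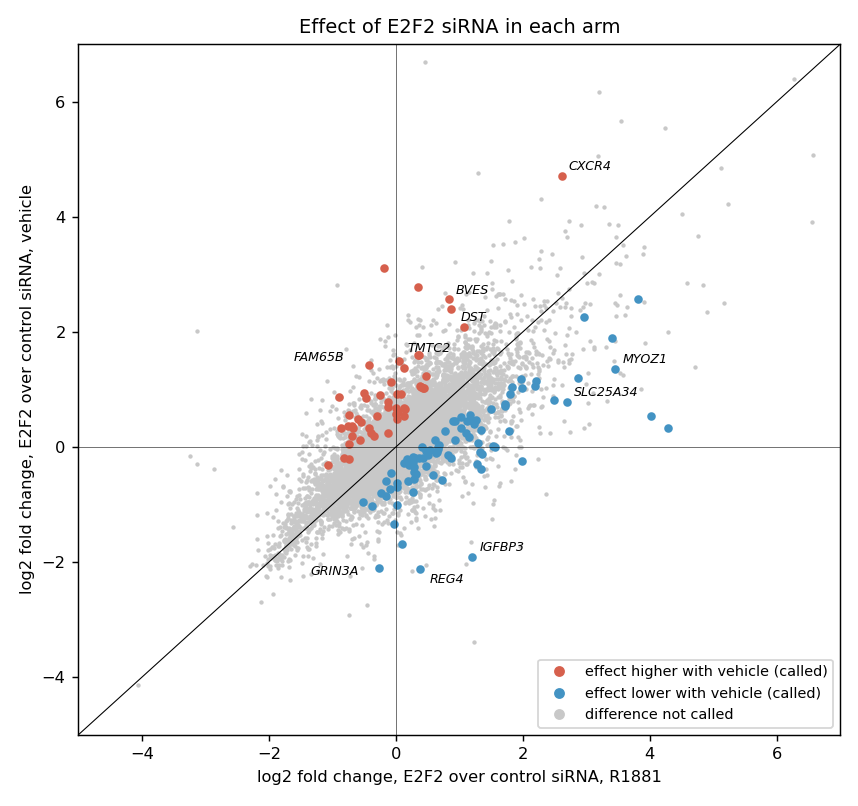
Log2 fold change of E2F2 siRNA over control siRNA with vehicle (vertical) against that with R1881 (horizontal) for each tested gene, with the 135 genes whose difference was called in red (higher with vehicle, 50) or blue (lower with vehicle, 85); the diagonal marks equal effects and 2 genes lie outside the axes. IGFBP3 sits at -1.91 with vehicle and 1.20 with R1881, and CXCR4 at 4.71 and 2.61.

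Of the list members, none of the 55 mitotic, 45 histone, 35 repair, 41 interferon or 71 ribosomal protein genes was called for the difference by edgeR. At an unadjusted p below 0.05 there were 2 mitotic, 5 histone, 7 repair, 4 interferon and 10 ribosomal protein genes, beside 10.4% of all tested genes. DESeq2 called 1 ribosomal protein gene and none of the others. The replicate block, under which 658 of all genes were called, called 2 mitotic, 2 histone, 4 repair, 1 interferon and 3 ribosomal protein genes, as well as 4 replication genes. Of 52 replication genes MCM6 was called: its log2 fold change was -0.19 ± 0.09 with vehicle and -0.81 ± 0.09 with R1881 (difference 0.62 ± 0.12, adjusted p = 0.0231). Of 32 p53 targets 2 were called, both higher with vehicle: the nuclease AEN was at 0.54 with vehicle and -0.30 with R1881 (difference 0.84 ± 0.13), and the damage sensor DDB2 at 0.79 with vehicle and -0.12 with R1881 (difference 0.91 ± 0.20). By its own counts the p53 list had 17 higher and none lower with vehicle, and 10 higher and 3 lower with R1881. With R1881, 15.9% of all genes were higher and 14.4% lower. Under the block 9 of the 32 targets were called for a higher and 1 for a lower fold change with vehicle, beside 658 of 15185 genes called in either direction. Of 24 androgen-repressed genes 4 were called for the difference, of 41 androgen-induced genes 2, and of 20 luminal genes 2. All of these had lower fold changes with vehicle, beside 0.56% of all genes. The endoplasmic reticulum stress, glycolysis, contractile and senescence lists had 1 called member each. KLK3, of the androgen-induced list, was lower with E2F2 siRNA without androgen, as given above. With R1881 it had 1802, 1776 and 1595 CPM with E2F2 siRNA and 1717, 1650.3 and 1717 CPM with control siRNA (difference -1.03 ± 0.17, adjusted p = 0.00813). The effect on VWF was also larger with vehicle (difference 1.24 ± 0.21, adjusted p = 0.0104).

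Whether the E2F2 pool acts differently from the E2F1 pool without androgen was tested directly between the 3 E2F2 siRNA and the 3 E2F1 siRNA vehicle libraries. The pools differed for 4641 of 15185 genes (30.6%), 2450 higher (16.1%) and 2191 lower (14.4%) with E2F2 siRNA. E2F1 had 11.8, 10.8 and 15.1 CPM with E2F2 siRNA and 5.79, 5.92 and 8.77 CPM with E2F1 siRNA (log2 difference 0.88 ± 0.17, adjusted p = 0.00115). Cell cycle genes were lower with the E2F2 pool: 43 of 52 replication genes and 46 of 55 mitotic genes were lower than with E2F1 siRNA and none higher, at medians of -1.01 and -1.32. TYMS had 26.8, 27.6 and 28.9 CPM with E2F2 siRNA, against 88.8, 82.9 and 87.3 CPM with E2F1 siRNA (log2 difference -1.63 ± 0.09, adjusted p = 3.21e-09). Histones were lower in 34 of 45 and ribosomal proteins in 68 of 71, at medians of -1.07 and -0.81.

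Among p53 targets 16 of 32 were higher and 1 lower with E2F2 siRNA than with E2F1 siRNA, at a median of 0.42. Of all genes, 16.1% were higher and 14.4% lower in this comparison. CDKN1A had 1060.2, 1075 and 1256 CPM with E2F2 siRNA and 213, 202 and 222 CPM with E2F1 siRNA (log2 difference 2.41 ± 0.12, adjusted p = 1.64e-09). In the interferon list 12 of 41 were higher and 4 lower, beside the same 16.1% and 14.4% of all genes, at a median of 0.36. The members called here are not reported singly. IFI27 had 2.87, 5.94 and 4.48 CPM with E2F2 siRNA and 2.71, 3.45 and 3.00 CPM with E2F1 siRNA (log2 difference 0.54 ± 0.24, adjusted p = 0.1). IFI6 had 70.6, 71.0 and 84.3 CPM with E2F2 siRNA and 54.9, 50.1 and 68.6 CPM with E2F1 siRNA (log2 difference 0.38 ± 0.17, adjusted p = 0.0972). Neither passed the test, which does not show that the pools act alike on them.

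Among the largest differences from the E2F1 pool, IL1B had 13.0, 16.4 and 13.8 CPM with E2F2 siRNA, against 0.146, 0.265 and 0.308 CPM with E2F1 siRNA (log2 difference 5.87 ± 0.34, adjusted p = 7.77e-09). AOC1, a diamine oxidase, had 159, 165 and 215 CPM with E2F2 siRNA and 2.56, 2.21 and 5.46 CPM with E2F1 siRNA (log2 difference 5.71 ± 0.38). ABCG2 (4.80 ± 0.35), MCPH1-AS1 (4.08 ± 0.32) and the collagen prolyl hydroxylase P3H2 (4.00 ± 0.18) were also higher with the E2F2 pool. In the other direction SERPIND1 had 0.185, 0.189 and 0.258 CPM with E2F2 siRNA, against 9.23, 8.31 and 8.62 CPM with E2F1 siRNA (log2 difference -5.30 ± 0.22, adjusted p = 4.29e-10), beside 1.15, 1.18 and 0.801 CPM with control siRNA. The glutathione transferase GSTA1 (-2.83 ± 0.16), GRIN3A (-2.81 ± 0.11), transthyretin, TTR (-2.77 ± 0.25), and the non-coding LINC01297 were lower. LINC01297 held 1 count over the 3 E2F2 siRNA libraries and 27 over the 3 E2F1 siRNA libraries, a ratio of 0.0426 after scaling, with a 95% counting interval of 0.00104 to 0.258.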

How the data were processed

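RNA of LNCaP cells was sequenced after TruSeq RNA Exome capture in 18 libraries, 3 in each of 6 groups of siRNA and treatment. Per the submitters' processing notes, base calling used CASAVA 1.8.2, reads were aligned to GRCh38 with TopHat2 2.0.13, Picard 1.97 was used, and featureCounts of Subread 1.6.4 made the gene counts. The authors deposited whole-number read counts per gene, not normalized; strand and multi-mapping settings are not given in the sources used here.

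Counts were fitted with edgeR 4.0.16 in R 4.3.3: filterByExpr with a minimum count of 10, TMM scaling, a quasi-likelihood test over all 18 libraries with 6 group means, and Benjamini-Hochberg adjustment over 15185 genes, called below 0.05. Unless another setting is named beside it, an adjusted p in the report is from this fit, which has no replicate block. Log2 fold changes are given ± SE, and CPM are scaled by TMM factors (± SD, n = 3 where a mean is given). The dispersion gave a common biological coefficient of variation of 0.167. The steps were run on simulated counts with 200 changed genes, a spread common to all genes and no replicate or GC effect. That run does not cover the deviation of replicate 3 or a change as broad as the one in these data. The difference between treatments was the vehicle fold change minus the R1881 fold change. Captured exons limit what non-coding genes show, and counting intervals (95%, exact binomial) cover counting error only.

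The gene sets and lists were chosen with earlier results of these data known. Named by rule were E2F1 and E2F2, the 14 largest rises and falls among called genes that averaged 1 or more in log2 CPM and whose groups did not overlap, the called members of each list with the lowest p (at most 4), and the 5 largest called differences each way in the other comparisons; loci with clone names were skipped. Other list members were named for their known roles after their values were seen. Lists are described by counts and medians, with no test of the list. Some members are counted but not reported singly here.

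Alternatives were relative log expression scaling, no filter, a filter that asks for 3 libraries with a CPM of 1 or more, DESeq2 1.42.0, the libraries of the contrast alone, a replicate block, an adjusted p under 0.01, a 2-fold minimum, replicates 1 and 2 alone, and leaving out each library. A replicate block with a GC and length correction was chosen after seeing the data; 15122 of the tested genes had GENCODE 29 features. The labels number replicates 1 to 3 in every group. Same-numbered E2F2 siRNA and control siRNA libraries deviated together, with correlations of 0.452, 0.609 and 0.762 in the vehicle groups, at least 0.189 among the R1881 and vehicle groups, and 0.316, 0.484 and 0.743 between E2F2 and E2F1 siRNA, so the numbers were taken to pair the samples. The main fit does not use this pairing, so its SE, adjusted p and missing calls are those of an unpaired test. The replicate block uses it and called 6873 genes, against 4145 in the main fit.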

Additional observations from a re-analysis of the deposited data

Results flagged for a closer look

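The effect of E2F2 siRNA differed between vehicle and R1881 for 135 genes by the test of that difference (edgeR, adjusted p below 0.05). Described above are the 5 largest on either side among those averaging at least 1 on the log2 CPM scale over all 18 libraries; larger fold differences in scarcer genes are not given. Vehicle minus R1881, on the log2 scale, came to 2.10 for CXCR4, 1.84 for FAM65B, 1.73 for BVES, 1.53 for DST and 1.44 for TMTC2. It came to -3.11 for IGFBP3, -2.50 for REG4, -2.09 for MYOZ1, -1.90 for SLC25A34 and -1.84 for GRIN3A. With replicates 1 and 2 alone the value for REG4 was -1.91.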

How the results depend on the processing

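For E2F2 siRNA against control siRNA with vehicle, the count of 4145 called genes became 1793 with the 6 libraries of the contrast alone, 6873 with the replicate block, 7709 with the block and a GC and length correction, 6962 with replicates 1 and 2 alone, 2500 at an adjusted p under 0.01 and 1239 at 2-fold or more. Leaving out a library gave 2948 to 4221. For the difference from R1881, the count of 135 became 60 with no filter, 317 with DESeq2, 40 with the libraries of the contrast alone, 658 with the block, 2005 with the block and the correction, 1767 with replicates 1 and 2 alone, 37 under 0.01 and 53 at 2-fold or more, and 59 to 208 with a library left out. Against E2F1 siRNA, 4641 became 8184 with the block and the correction, 7670 with replicates 1 and 2 alone, 2961 under 0.01 and 1457 at 2-fold or more, with 3513 to 5931 when a library was left out. The log2 fold change of E2F2 ranged over -5.40 to -3.62 with a library left out. No sign reversed in 138 results on named genes wherever they were tested. With only the libraries of the contrast 124 kept and 12 lost their call, and the rest were not tested there. Those that lost it were BCL2, BIRC3, CASP9, ERAP1, B2M, ACSS2, CDH1, MT-ND4L and MT-ND4 and, for the difference, REG4, MYOZ1 and SLC25A34. With no filter SLC25A34 lost its call too. Apart from the counts given here and beside the lists, the replicate block ended no call of a named gene. The causes were not tested. E2F2 itself, with 4 counts against 98, is limited by depth.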

Other observations

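A pair of abundant nuclear RNAs was picked out because their values were high, and stands for no group of genes. NEAT1, the scaffold of paraspeckles, averaged 2818 ± 369.6 CPM with E2F2 siRNA and 517 ± 115 CPM with control siRNA (SD, n = 3; log2 fold change 2.45 ± 0.23 (SE), adjusted p = 1.27e-06). MALAT1, which sits in nuclear speckles, averaged 65151 ± 11033 CPM with E2F2 siRNA and 25068 ± 11245 CPM with control siRNA (log2 fold change 1.38 ± 0.32 (SE), adjusted p = 0.00458). By annotated type, 96 of 631 tested pseudogenes (15.2%) were higher and 36 lower, 230 of 1743 long non-coding genes (13.2%) were higher and 128 lower, and 1786 of 12501 protein-coding genes (14.3%) were higher and 1813 lower.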
